A study of Mus musculus with 8 samples.

Results

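The 10 genes described here belong to the redox defence of the cell. They are the transcription factor gene Nfe2l2, the classical Nrf2 targets Nqo1, Gclc, Gclm, Txnrd1, Hmox1 and Srxn1, the glutathione peroxidase genes Gpx1 and Gpx2, and the superoxide-producing oxidase gene Nox1. They were taken by gene symbol from a table of 53801 genes, and all 10 were found. RNA was measured in Paneth cells of the mouse small intestine, the granule-filled secretory cells at the crypt base. Cells were sorted by FACS as viable EpCAM+ Cd24+ cells after staining that included CD45, a marker of immune cells, 300 per library, at 10 d after induction. All mice carried Lgr5-EGFP-IRES-CreERT2 and a stabilised β-catenin (beta-cateninGOF). The 4 controls lost 1 Mll1 allele (Mll1+/-) and the 4 knockouts lost both (Mll1-/-). Mutagenesis was induced with 1 mg tamoxifen on 3 consecutive days in mice of 4 to 6 weeks. Mice of both sexes were analysed in the study. The Cre recombinase acts in Lgr5+ stem cells and recombines a mosaic of crypts. The sort names no marker of recombination. From protein staining the study reports that all crypt cells of the knockouts, Paneth cells among them, lacked Mll1 when sorted. That staining is not analysed here. No group without the Mll1 and β-catenin alleles is compared here. The study's paragraph on sorting names the Mll1 genotypes without the β-catenin allele, which the series design text gives. Mll1, encoded by Kmt2a, is a histone methyltransferase, and the comparison asks which transcripts differ in Wnt-high Paneth cells without it.

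Nrf2, the product of Nfe2l2, is held in the cytosol by Keap1, which hands it to a Cul3 ubiquitin ligase for degradation. Oxidants and electrophiles modify Keap1, and Nrf2 then enters the nucleus, pairs with a small Maf protein and binds antioxidant response elements. Its targets make glutathione, recycle thioredoxin, detoxify quinones and store iron. Much of this control acts on the Nrf2 protein, so the RNA level of Nfe2l2 alone does not report its activity. Paneth cells fold and secrete large amounts of disulfide-bonded defensins, and the crypt epithelium makes the peroxidase Gpx2 and the oxidase Nox1.

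The core of the antioxidant response element, TGACNNNGC, was searched on both strands of the RefSeq promoter windows (GRCm38.p6), which run from 250 bases before to 50 bases after a gene's start. Windows were found for 8 of the 10 genes, all but Gclc and Hmox1. The core lay in a window of 4 of the 8, Nfe2l2, Gclm, Txnrd1 and Srxn1, and in the windows of 14.0% of all 27025 genes with one. It was in the windows of 24.4% of the 86 matched genes of the pathway lists described further on. In Nfe2l2 the match began 240 bases before the start, in Gclm 134 and in Txnrd1 92, while in Srxn1 it began 28 bases after the start. For Txnrd1 this is 1 of 3 annotated starts and lies inside the gene, and the windows of the other 2 starts held no match. The windows of Nqo1, Gpx1, Gpx2 and Nox1 held no match. The 250 bases before the start are shown for 3 genes, and for Srxn1 the match with 10 bases on either side, because these are the members whose start region holds the core. Capitals mark the core on either strand. The Nfe2l2 sequence is chr2:75704664-75704913 on the minus strand, that of Gclm chr3:122245307-122245556, that of Txnrd1 chr10:82858956-82859205 and that of Srxn1 chr2:152105542-152105570, the last 3 on the plus strand.
Nfe2l2: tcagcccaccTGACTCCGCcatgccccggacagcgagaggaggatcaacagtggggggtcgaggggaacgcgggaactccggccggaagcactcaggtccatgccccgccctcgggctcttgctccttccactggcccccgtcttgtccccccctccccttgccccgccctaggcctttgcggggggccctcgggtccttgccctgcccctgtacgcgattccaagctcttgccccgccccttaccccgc
Gclm: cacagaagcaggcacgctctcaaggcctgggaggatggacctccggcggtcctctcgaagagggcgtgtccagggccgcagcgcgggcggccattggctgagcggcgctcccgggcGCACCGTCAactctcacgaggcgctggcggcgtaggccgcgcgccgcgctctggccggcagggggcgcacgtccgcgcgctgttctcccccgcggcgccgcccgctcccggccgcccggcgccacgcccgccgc
Txnrd1: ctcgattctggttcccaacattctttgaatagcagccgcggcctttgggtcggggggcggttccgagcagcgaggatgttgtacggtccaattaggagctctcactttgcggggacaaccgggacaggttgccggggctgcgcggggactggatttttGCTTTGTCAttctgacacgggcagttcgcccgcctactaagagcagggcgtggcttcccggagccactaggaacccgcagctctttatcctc
Srxn1: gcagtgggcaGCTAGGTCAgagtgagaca
A match of these letters is a description of the sequence and not a measured binding site.

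Totals per library lay between 13037832 and 14380240 counts, and levels are given as normalized CPM, counts scaled to library size with edgeR's TMM factors. Genotypes were compared with edgeR's quasi-likelihood test, with Benjamini-Hochberg adjustment over all 13439 genes that passed a filter on low counts. Calls required an adjusted p no larger than 0.05 together with an absolute log2 fold change of 0.5 or more. Of the 10 Paneth cell markers examined, all 10 had counts in every library, summing to 269100 to 536100 CPM in controls and to 245500 to 760800 CPM in knockouts. Kmt2a itself had counts of 719, 469, 268 and 284 across controls 1 to 4 and of 523, 447, 328 and 468 across knockouts 1 to 4. This count covers all exons and does not show whether the floxed part was deleted. Knockout 3 stood apart from the other libraries. Only 19662 genes were detected in it, while the other 7 libraries detected 22623 to 26074, and its TMM factor was 0.632 compared with 0.822 to 1.34. It held 1037 Xist and 148 Y-linked counts, whereas the other libraries held at most 22 Y-linked counts or at most 6 Xist counts. By these counts control 3 and knockouts 1 and 2 were male, and controls 1, 2 and 4 and knockout 4 female. Its level was the lowest of the 8 libraries in 31.0% of the tested genes and the highest in 26.8%. The library numbers in the labels form 2 runs. Controls 1 and 2 and knockouts 1 and 2 fall in the first run (library set 1), the other 4 libraries in the second (library set 2). In set 1 both controls were female and both knockouts male by these counts, so that within set 1 genotype and sex cannot be told apart. In bulk RNA, fewer cells with a transcript and less of it per cell cannot be told apart.

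None of the 10 genes was called. Of the 10, 8 passed the filter and 0 had an unadjusted p under 0.05, while over all tested genes 25 (0.186%) were called, 0.156% higher and 0.0298% lower in the knockouts, and 6.88% had an unadjusted p under 0.05. At a 10% false discovery rate the share over all genes was 0.283%, again with 0 of the members. Hmox1 and Nox1 did not pass the filter. By DESeq2's Wald test and by limma-voom, which called 1.03% and 0.752% of all tested genes, 0 of the 8 were called as well. In each of the 10 genes the 2 genotypes overlapped, and complete separation was seen in 4.52% of all tested genes, with the knockouts above in 2.59% and below in 1.93%. Among the 8 tested genes the largest log2 fold changes were 0.57 in Nqo1, -0.40 in Gclc and 0.34 in Gpx2, and none passed the test. For 7 of the 8 tested genes, the 95% interval of the difference lay within a 2-fold change in either direction, as it did for 45.6% of all tested genes. Nqo1 was the exception.

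Compared per length, the peroxidases were far above the other members. Over all 8 libraries, Gpx1 had 61.6 normalized CPM per kb and Gpx2 45.9, percentiles 97.8 and 97.2 of the tested genes. Nfe2l2 followed at 6.23, Txnrd1 at 5.89, Gclc at 5.25, Gclm at 2.89, Nqo1 at 1.74, Srxn1 at 1.47, Hmox1 at 0.636 and Nox1 at 0.0622 CPM per kb. The step from Gpx2 to Nfe2l2, a 7.37-fold difference in mean level, was seen in 8 of 8 libraries, as was the step from Gclc to Gclm. Gpx1 was above Gpx2, Gclm above Nqo1, Srxn1 above Hmox1 and Hmox1 above Nox1 in 7 of 8 libraries each. Length here counts every annotated exon base of a gene, 3222 for Gpx2 and 1441 for Gpx1. In normalized CPM not divided by length, Gpx2 was above Gpx1 in every library, so the order of these peroxidases depends on the length used. The order of Nfe2l2, Txnrd1 and Gclc was not fixed: Nfe2l2 was above Txnrd1 in 5 libraries, and Txnrd1 above Gclc in 6. Nqo1 and Srxn1 likewise changed places, with Nqo1 higher in 6 of 8.

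**Figure D1:**
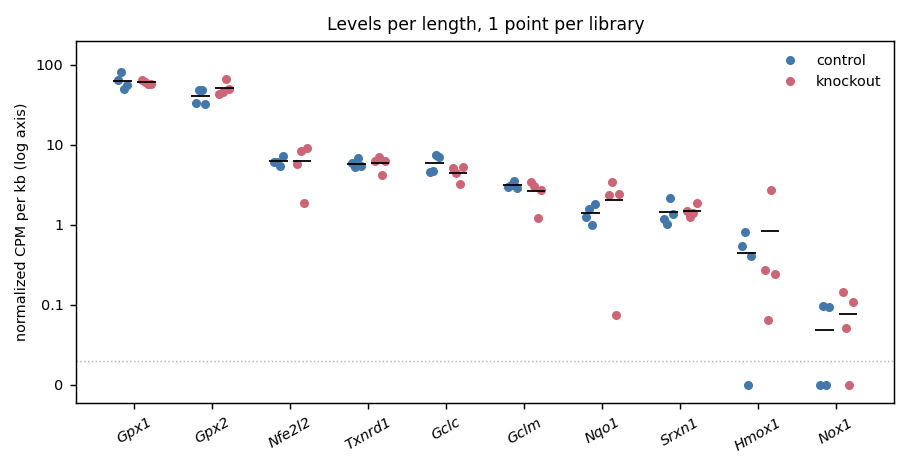
Level of each of the 10 genes per length (normalized CPM per kb, logarithmic axis), with 1 point per library, controls in blue and knockouts in red, and a black line at each group mean. Points under the dotted line are libraries at 0. Gpx1 and Gpx2 lie above the other 8 genes in every library, and knockout 3 is the low point in Nfe2l2, Gclm and Nqo1.

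Nfe2l2 (ENSMUSG00000015839, chromosome 2 from 75675513 to 75704641) encodes Nrf2. It had 23.2, 23.1, 20.4 and 27.6 normalized CPM in controls 1 to 4 and 22.2, 31.5, 7.05 and 34.3 in knockouts 1 to 4. Knockouts 2 and 4 were above all controls and knockout 3 was below all of them. The group means were nearly equal, at 23.5 ± 2.97 and 23.7 ± 12.3 CPM (SD, n = 4 per genotype), with a log2 fold change of 0.02 with a standard error of 0.37 and a 95% interval from -0.78 to 0.82 (adjusted p = 0.997 from edgeR). Without knockout 3 the log2 fold change was 0.31 (adjusted p = 0.578).

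Nqo1 (ENSMUSG00000003849, chromosome 8 from 107388225 to 107403206) encodes the quinone reductase that serves as the textbook readout of Nrf2. It had 1.94, 2.46, 1.53 and 2.84 normalized CPM in controls 1 to 4 and 3.62, 5.28, 0.118 and 3.82 in knockouts 1 to 4. Knockouts 1, 2 and 4 were above every control, whereas knockout 3 received a single count, 1, against 17 to 36 counts in the controls. The log2 fold change was 0.57 with a standard error of 0.65 and a 95% interval from -0.84 to 1.99 (adjusted p = 0.952). Without knockout 3 it was 0.95 (adjusted p = 0.277), with every knockout above every control, a pattern seen in 6.32% of the tested genes without that library and, counting both directions, separation in 11%. The difference was 1.02 within library set 1, where it is also one of sex, and -0.09 within library set 2, which holds knockout 3. Without knockout 3 the sexes were uneven between genotypes, knockouts 1 and 2 and control 3 being male by sex-linked counts.

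Hmox1 (ENSMUSG00000005413, chromosome 8 from 75093621 to 75100589) encodes heme oxygenase 1, an inducible enzyme that breaks down heme. Controls 1 to 4 held 15, 18, 0 and 9 counts and knockouts 1 to 4 held 8, 2, 41 and 7. In normalized CPM, knockout 3 was at 4.82, where the other knockouts reached 0.115 to 0.475 and the controls 0 to 1.43. Here knockout 3 was the highest library, while in Nqo1 it was the lowest. The exact permutation test gave p = 0.886 (two-sided), and without knockout 3 the knockout mean was 0.338 ± 0.195 CPM against 0.77 in the controls (exact permutation test, p = 0.286). Macrophages also make Hmox1. The cells were sorted as EpCAM+, and whether the sort left out every macrophage was not tested. Of the 14 immune markers 3 had a count in knockout 3 (Ptprc, Cd68 and Cd3g), against 4 to 10 in the other libraries, and the summed level of the list was 2.70 CPM there against 2.43 to 15.2. Cd68, a macrophage marker, had 10 counts in knockout 3 and 4 to 31 in the other libraries. C1qa and Adgre1 were at 0 in knockout 3, but had at most 1 and 3 counts in any library. The summed level of 11 immediate early and dissociation genes was highest in knockout 3, at 855.7 CPM against 322.7 to 579.6 in the other 7, and the part of either list in the Hmox1 level was not tested.

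**Figure D2:**
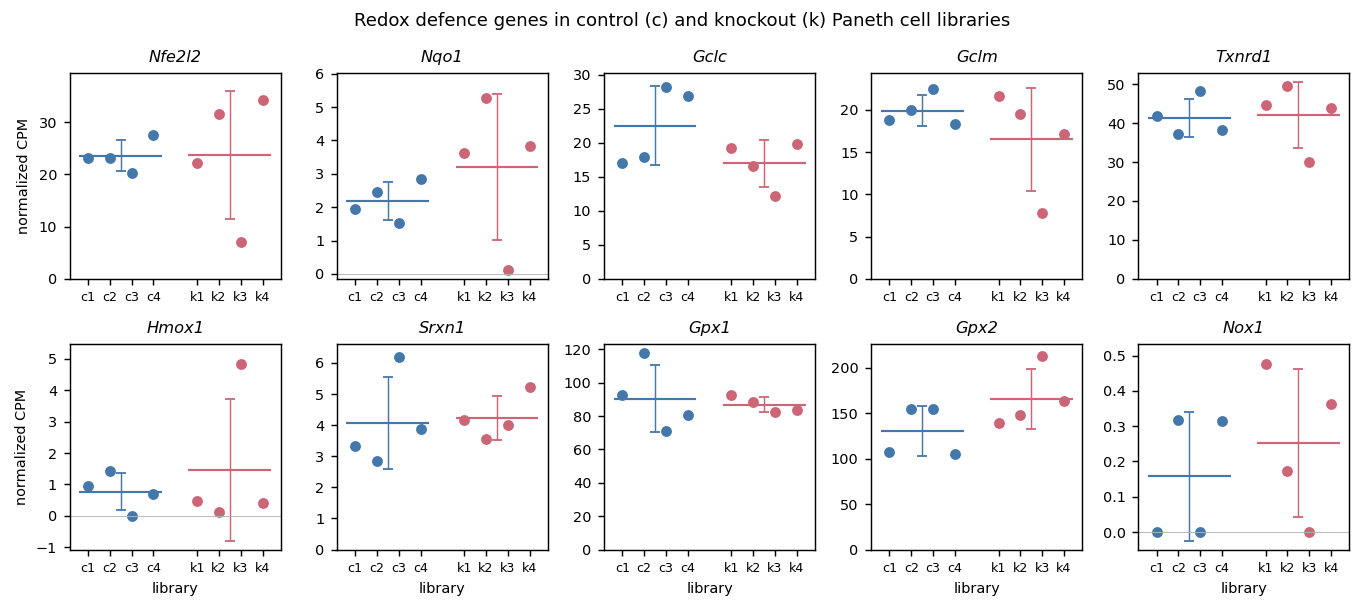
Normalized CPM of the 10 genes in controls 1 to 4 (c1 to c4, blue) and knockouts 1 to 4 (k1 to k4, red), on linear axes. Points are libraries, horizontal lines group means and bars 1 SD. Knockout 3 (k3) is the lowest library in Nfe2l2, Nqo1, Gclc, Gclm and Txnrd1 and the highest in Hmox1 and Gpx2.

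Gclc and Gclm encode the catalytic and the modifier subunit of glutamate-cysteine ligase, the rate-limiting enzyme of glutathione synthesis. Gclc (ENSMUSG00000032350, chromosome 9 from 77754535 to 77794485) lies 32.9 Mb from Kmt2a. It had 17.1, 17.9, 28.3 and 26.8 normalized CPM in controls 1 to 4 and 19.3, 16.5, 12.2 and 19.8 in knockouts 1 to 4. Controls 3 and 4 were the 2 highest libraries, and controls 1 and 2 lay among the knockouts. The log2 fold change was -0.40 with a standard error of 0.23 and a 95% interval from -0.91 to 0.10 (adjusted p = 0.838), and it was 0.03 within library set 1 against -0.76 within library set 2. Whether the sets differ was not tested. Gclm (ENSMUSG00000028124, chromosome 3 from 122245557 to 122270732) had 18.8, 20.0, 22.4 and 18.3 CPM in the controls and 21.6, 19.5, 7.75 and 17.1 in the knockouts. Apart from knockout 3, at 7.75, the libraries lay between 17.1 and 22.4. Its log2 fold change was -0.26 (standard error 0.27, adjusted p = 0.943) and -0.04 without knockout 3.

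Txnrd1 (ENSMUSG00000020250, chromosome 10 from 82833951 to 82897712) encodes the selenoprotein that reduces cytosolic thioredoxin. It had 41.8, 37.1, 48.2 and 38.3 normalized CPM in controls 1 to 4 and 44.6, 49.6, 30.1 and 44.0 in knockouts 1 to 4. The genotypes overlapped, with knockout 2 highest and knockout 3 lowest. The means of 41.4 ± 4.97 and 42.1 ± 8.39 CPM gave a log2 fold change of 0.03 with a 95% interval from -0.38 to 0.43 (adjusted p = 0.995), the second narrowest interval among the 8. Srxn1 (ENSMUSG00000032802, chromosome 2 from 152105516 to 152111376) encodes sulfiredoxin, which restores overoxidised peroxiredoxins. It had 3.32, 2.86, 6.19 and 3.87 CPM in the controls and 4.16, 3.56, 3.99 and 5.22 in the knockouts. Control 3 was highest, and all 4 knockouts lay within the range of the controls. The log2 fold change was 0.07 with a standard error of 0.32 (adjusted p = 0.995).

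Gpx1 and Gpx2 encode selenium-dependent peroxidases that use glutathione to reduce peroxides, Gpx1 in most tissues and Gpx2 mainly in epithelium of the gut. Gpx1 (ENSMUSG00000063856, chromosome 9 from 108338903 to 108340343) had 92.4, 117.8, 71.0 and 80.8 normalized CPM in controls 1 to 4 and 92.7, 88.7, 82.3 and 84.0 in knockouts 1 to 4. The knockouts lay close together, inside the range of the controls. The log2 fold change was -0.06 with a 95% interval from -0.45 to 0.33 (adjusted p = 0.990), the narrowest interval of the 8. Gpx2 (ENSMUSG00000042808, chromosome 12 from 76792333 to 76795554) had 107.3, 154.1, 154.9 and 105.1 CPM in the controls and 138.5, 147.5, 213.1 and 162.8 in the knockouts. Knockouts 3 and 4 were above every control, and the other knockouts were between the controls. The means were 130.3 ± 27.9 and 165.5 ± 33.3 CPM, a log2 fold change of 0.34 with a standard error of 0.21 (adjusted p = 0.851), which was 0.20 without knockout 3. Per length, the ratio of Gpx2 to Gpx1 averaged 0.665 ± 0.209 for controls against 0.859 ± 0.215 for knockouts (SD, n = 4 per genotype), a difference within the spread (exact permutation test, p = 0.257). A pseudogene named for Gpx2 received 31 to 115 counts per library, and reads shared with it would be missing from Gpx2 because the counts hold uniquely mapped reads.

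Nox1 (ENSMUSG00000031257, chromosome X from 134086421 to 134221956) encodes an NADPH oxidase that releases superoxide. Controls 1 to 4 held 0, 4, 0 and 4 counts and knockouts 1 to 4 held 8, 3, 0 and 6. Of its exon bases 12.1% also belong to Cstf2 on the other strand. In 6 of the 8 libraries the count was at most 4, and 3 counts correspond to between 0.172 and 0.352 normalized CPM. The exact permutation test gave p = 0.486, and at these counts no lower level in the knockouts could have been seen.

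**Figure D3:**
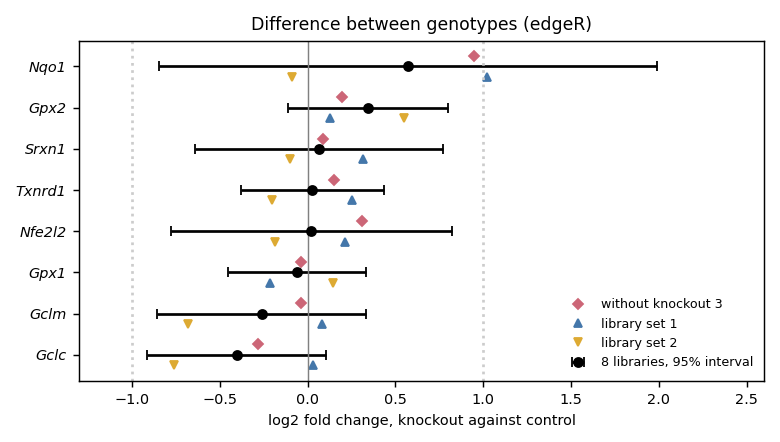
Log2 fold change of the 8 tested genes, knockouts against controls, with 95% intervals from edgeR (black), the same without knockout 3 (diamonds) and within library set 1 or 2 (triangles). All 8 black intervals include 0, and dotted lines mark a 2-fold change in either direction. The value without knockout 3 is higher than with it in 7 of the 8 genes, and lower in Gpx2.

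Knockout 3 was the lowest of the 8 libraries in 5 of the 8 tested members, Nfe2l2, Nqo1, Gclc, Gclm and Txnrd1, beside the 31.0% of all tested genes in which it was lowest. It was the highest in Gpx2 and Hmox1. In this library the summed Paneth cell markers were also highest, at 760800 CPM, and the crypt stem cell markers lowest, at 272.8 CPM against 634.4 to 1520 in the other 7. The part of cell composition in the low values of knockout 3 was not tested.

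The wider pathway was followed through 100 further genes in 6 lists. The lists were chosen with earlier results of these data known, so their shares and medians are descriptions and not tests. Of the 100 genes, 86 passed the filter and 0 were called in either direction, beside the 0.186% of all tested genes that were called. The smallest adjusted p was 0.240. Of the 86, 14 had an unadjusted p under 0.05, 12 higher and 2 lower in the knockouts, and 10 of the 12 belonged to the list of other Nrf2 targets. In that list of 27 detoxification, NADPH and iron genes, 26 were tested, 19 were higher and 7 lower, and the median log2 fold change was 0.33, where 50.9% of all tested genes were higher and the median was 0.01. Over all tested genes 4.35% were higher and 2.53% lower at an unadjusted p under 0.05. Of the marker genes 0 were called. The fitted values were higher in 10 of 11 dissociation and immediate early genes (median log2 fold change 0.39), lower in 5 of 7 tested enterocyte markers (median -0.72) and lower in 4 of 6 crypt stem cell markers (median -0.44). Without knockout 3, 7 of the 11 dissociation and immediate early genes were higher (median 0.25), and the medians were -0.71 in the enterocyte list, -0.31 in the stem cell list and 0.42 in the other Nrf2 targets. The part of these marker lists in the level of the targets was not tested. The medians were 0.10 in the 14 Nrf2 regulators and partners, 0.19 in the glutathione list, 0.02 in the thioredoxin list, 0.10 in the list of dismutases and catalase and 0.21 in the NADPH oxidase list. Without knockout 3 they were 0.09, 0.07, -0.08, 0.17 and 0.28 in the same order, so that the sign of the thioredoxin median depended on that library.

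**Figure D4:**
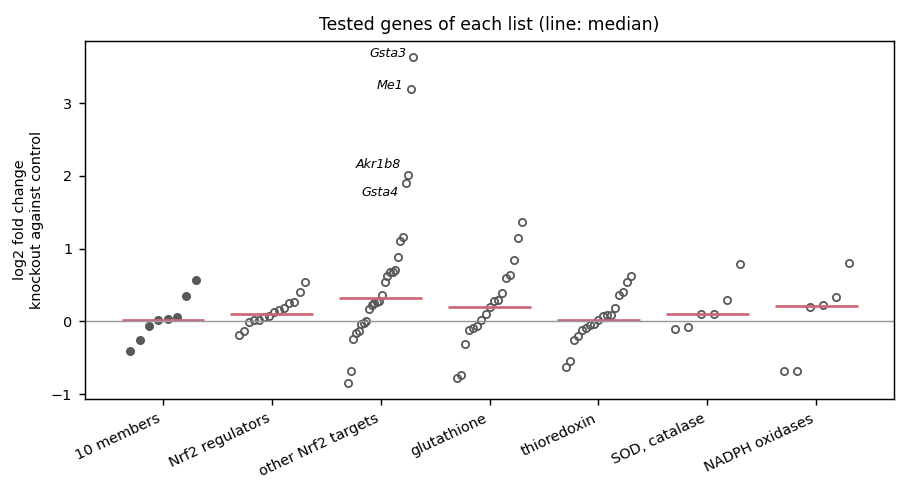
Log2 fold change, knockouts against controls, of the tested genes of the 10 members and of 6 pathway lists, with a red line at each median. Points are genes, and those beyond 1.8 in size are named. The 4 named genes, Gsta3, Me1, Akr1b8 and Gsta4, belong to the list of other Nrf2 targets, whose median is 0.33.

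Among the regulators, the inhibitor Keap1 averaged 4.52 ± 1.08 normalized CPM in controls against 4.77 ± 0.555 in knockouts, with a log2 fold change of 0.07 (adjusted p = 0.995). The most abundant regulators per length were the autophagy receptor Sqstm1 (log2 fold change 0.26), the ligase subunits Cul3 (-0.02) and Rbx1 (0.15) and the Keap1 binder Dpp3 (0.19), all with overlapping groups. Without knockout 3 the values were 0.09 in Sqstm1, 0.10 in Cul3, 0.20 in Rbx1 and 0.0010 in Dpp3, and -0.0054 in Keap1.

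Of the other targets, Fth1, the heavy chain of the iron store ferritin, was the most abundant. It had 331.9, 544.2, 515.9 and 489.3 normalized CPM in controls 1 to 4 and 766.4, 839.8, 705.0 and 700.6 in knockouts 1 to 4. Every knockout lay above every control, knockout 3 included. The log2 fold change was 0.68 with a standard error of 0.21 (adjusted p = 0.452 from edgeR), and the exact permutation test gave p = 0.0286, the smallest that 4 libraries against 4 allow. DESeq2's Wald test placed Fth1 just past the threshold (adjusted p = 0.0458). The next in level were Taldo1 of the pentose phosphate pathway (log2 fold change -0.13) and the glutathione transferase genes Gstp1 (0.25, and 0.43 without knockout 3) and Gstm1 (0.62, adjusted p = 0.676).

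The genotypes were also completely separated in Gsta3, Akr1b8, Glo1 and Msra, so that 5 of the 86 tested pathway genes (5.81%) were separated, beside 4.52% of all tested genes. Gsta3, Akr1b8 and Msra, like Me1 and Gsta4, are named because of their values. Gsta3, a glutathione transferase of a family with similar copies, had counts of 3, 4, 0 and 13 across controls 1 to 4 and of 60, 63, 9 and 182 across knockouts 1 to 4. Knockout 4 was far above the rest, and knockout 3, at 1.06 normalized CPM, was only just above control 4 at 1.03. Its log2 fold change was 3.63 with a standard error of 0.87 (adjusted p = 0.240), 3.95 without knockout 3 (adjusted p = 0.0240), and 3.82 and 3.53 within library sets 1 and 2. DESeq2 called Gsta3 on all 8 libraries (log2 fold change 3.66, adjusted p = 0.00204). Akr1b8, an aldo-keto reductase, received 4, 16, 4 and 12 counts among controls against 22, 26, 43 and 62 among knockouts, with a log2 fold change of 2.01 (adjusted p = 0.468). The Akr1b8 value was 1.62 without knockout 3, and 0.92 and 2.73 within library sets 1 and 2. Glo1, which detoxifies methylglyoxal with glutathione, averaged 67.0 ± 5.80 CPM in controls against 82.0 ± 5.92 in knockouts, with a log2 fold change of 0.29 (adjusted p = 0.788). Msra, a methionine sulfoxide reductase, was lower in every knockout, at 9.59 ± 3.63 and 6.18 ± 1.69 CPM (log2 fold change -0.63, adjusted p = 0.779). Control 2, at 15.0 CPM against 7.36 to 8.37 in the other controls, raised the control mean. The log2 fold change was -1.05 within library set 1, which holds control 2, and -0.16 within set 2.

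In Nqo1, knockouts 1, 2 and 4 were above every control and knockout 3 was not. This pattern, picked out after the values were seen, was found in 10 of the 86 tested pathway genes (11.6%) and in 3.74% of all tested genes. The 10 were Me1, Gsta4, Gstm1, Ugdh, Abcc4, Pir, Mgst1, Prdx1, Prdx2 and Prdx4, and the 3 called without knockout 3 are given with their values. Me1, which makes NADPH from malate, had counts of 9, 12, 1 and 3 across controls 1 to 4 and of 86, 109, 0 and 95 across knockouts 1 to 4. Gsta4 had 3.82, 0.952, 1.795 and 1.89 normalized CPM in the controls and 7.84, 9.76, 0 and 14.1 in the knockouts. Prdx1, an abundant peroxiredoxin, had 159.2, 144.9, 167.7 and 151.9 CPM in the controls and 258.6, 276.0, 159.3 and 267.7 in the knockouts. In Me1 and Gsta4 knockout 3 had no counts, and in Prdx1 it lay within the controls. With all libraries their log2 fold changes were 3.19, 1.90 and 0.62 (adjusted p = 0.402, 0.686 and 0.468). Without knockout 3 they were 3.58, 2.29 and 0.78, and with Gsta3 these were the 4 pathway genes called (adjusted p = 0.00486, 0.0154 and 0.0180), beside 1.08% of the 14086 genes tested in that fit, 0.944% of them higher in the knockouts. Of the 10 members 0 were called in it. Among the libraries of this fit, knockouts 1 and 2 and control 3 were male by sex-linked counts, so the sexes were uneven between genotypes. With a Y-linked covariate on all 8 libraries, 0 pathway genes were called, beside 10 of all tested genes. Within library set 1 alone, where genotype and sex cannot be told apart, 1.01% of all tested genes were called, Gsta3, Me1 and Abcc4, an efflux transporter gene, among them, Abcc4 with a log2 fold change of 1.77 (adjusted p = 0.0282 from edgeR) against 0.16 within set 2. The summed level of the immediate early and dissociation genes was between 510.5 and 551.5 CPM in knockouts 1, 2 and 4 and between 322.7 and 579.6 in the controls. Without knockout 3, 1 of 10 Paneth cell markers (median log2 fold change -0.58) and 1 of 9 goblet cell markers (median -0.36) were higher in the knockouts, with 0 called. The part of these lists in the differences of the targets was not tested.

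**Figure D5:**
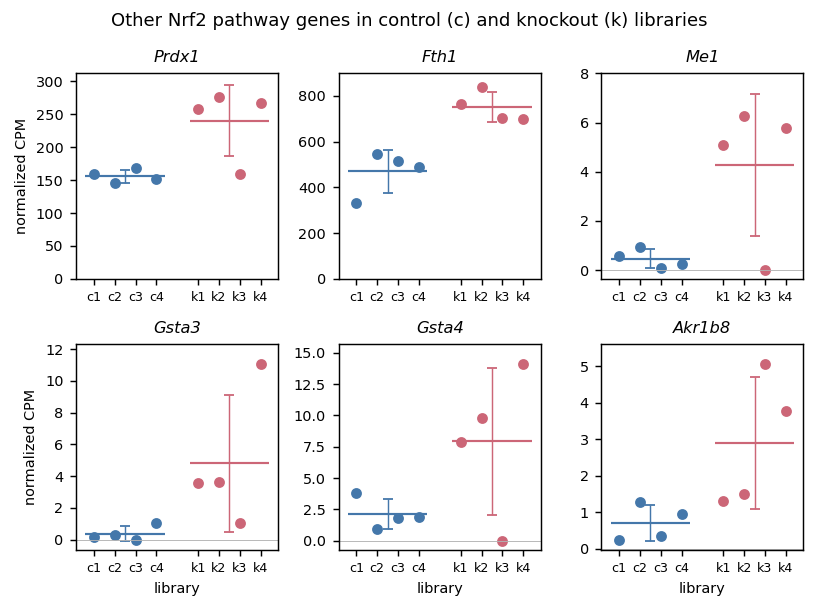
Normalized CPM of 6 pathway genes in controls 1 to 4 (c1 to c4, blue) and knockouts 1 to 4 (k1 to k4, red), on linear axes, with group means as lines and 1 SD as bars. Prdx1, Me1 and Gsta4 are above every control in knockouts 1, 2 and 4 but not in knockout 3, while in Fth1, Gsta3 and Akr1b8 all 4 knockouts are above every control.

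In the glutathione list, 17 of 20 genes were tested and 0 called. Its most abundant genes beside Glo1 were the microsomal transferases Mgst3 (log2 fold change -0.78, adjusted p = 0.632) and Mgst1 (0.63, adjusted p = 0.887) and the glutathione reductase Gsr (0.01, adjusted p = 0.997). In both transferases the groups overlapped. The smallest unadjusted p of a gene lower in the knockouts was that of Glrx, which encodes glutaredoxin, at 0.00615 from edgeR. Glrx had 15.2, 28.3, 24.6 and 29.0 CPM across controls 1 to 4 and 14.7, 14.6, 12.9 and 16.1 across knockouts 1 to 4, with a log2 fold change of -0.73 (adjusted p = 0.411). Control 1 lay among the knockouts. In the thioredoxin list, 17 of 17 were tested and 0 called. Txn1, the cytosolic thioredoxin, averaged 166.0 ± 20.1 CPM in controls against 160.3 ± 54.4 in knockouts (log2 fold change -0.05), Txndc17 a log2 fold change of -0.20 and Prdx3, the mitochondrial peroxiredoxin, one of 0.09. Among the dismutases and their partners, Sod1 (-0.11), Sod2 (0.10), the copper chaperone Atox1 (0.09) and Park7 (0.29) did not pass the test. Of the NADPH oxidase list 6 of 15 genes passed the filter. The membrane subunit Cyba (log2 fold change 0.81, adjusted p = 0.826), Rac1 (0.22), Rac2 (-0.68) and the Nox1 activator Noxa1 (0.20) were the most abundant of them. Cyba was highest in knockout 3, at 17.5 CPM, and its log2 fold change was 0.30 without that library. Leaving it out also moved Rac2 to -0.31, Noxa1 to 0.33, Atox1 to 0.30, Sod2 to 0.03, Txn1 to 0.13, Gsr to 0.10 and Mgst1 to 0.96, none of them called. Of Rac1, 51.4% of the exon bases also belong to Daglb on the other strand. The phagocyte oxidase gene Cybb had at most 3 counts in a library, and Noxo1, the Nox1 organiser, at most 24, with 70.4% of its exon bases shared with Tbl3 on the other strand.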

How the data were processed

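Smart-seq2 copies polyadenylated RNA and amplifies it by PCR. The authors aligned reads to mm10 with GSNAP, assigned uniquely mapped reads to Ensembl genes with featureCounts 1.6.3 and deposited raw counts. The strand setting was not given in the sources used here. Of the rows, 53801 genes were kept and 92 spike-ins, with at most 11 counts per library, left out.

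The fit used edgeR 4.0.16 in R 4.3.3 (TMM, filterByExpr set to 10 counts and 15 in total, robust quasi-likelihood). DESeq2 1.42.0 and limma 3.58.1 (voom) were alternatives, with other scalings, filters, cutoffs, covariates and each library left out. Standard errors are the log2 fold change divided by the square root of F. Scripts were tested on simulated data. Exact permutation tests used every assignment of the libraries compared, 70 with all 8. Counting limits ignore PCR copies. The study gives 4 mice per genotype, and its methods call them littermates. Replicate numbers here are names that pair nothing, and p-values measure the spread between libraries. Between any pair of libraries, chi-square per degree of freedom was at least 12.18. Members and lists were chosen with earlier results of these data known. Named were all members, called pathway genes, the 4 most abundant tested genes of each list per length, and genes whose groups did not overlap. Keap1, Cybb, Noxo1 and the markers were added for their roles, and Me1, Gsta4, Abcc4, Glrx and the genes listed with the Nqo1 pattern after their values were seen.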

Additional observations from a re-analysis of the deposited data

Results flagged for a closer look

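In groups of 4 libraries, a library was set apart where its gap to the nearest other was above Dixon's critical value as a share of the range. This was so in 5 of 74 groups over the 10 members and the named pathway genes, where chance gives about 3.7. Hmox1 in knockout 3 was at 4.816 normalized CPM and the remaining knockouts at 0.115 to 0.475, a gap of 0.923 of the range. Prdx1 in knockout 3 was at 159.3 against 258.6 to 276.0 (0.850). The other 3 were controls: Msra in control 2 was at 15.0 against 7.36 to 8.37 (0.868), Atox1 in control 2 at 41.3 against 25.7 to 28.1 (0.845) and Sod2 in control 4 at 26.3 against 19.4 to 20.2 (0.881). Their causes were not tested.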

How the results depend on the processing

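Of the 10 members 0 were called under every alternative run, and the smallest adjusted p of a member was 0.277, for Nqo1 without knockout 3. Of 135 log2 fold changes of members under the alternatives, 121 kept their direction. Upper-quartile scaling turned Nfe2l2 to -0.0105 and Txnrd1 to -0.0106, a Y-linked covariate turned Txnrd1 to -0.0399, and limma-voom turned Gpx1 to 0.0319. When single libraries were omitted, Nfe2l2 ranged from -0.21 to 0.31, Txnrd1 from -0.0615 to 0.15, Srxn1 from -0.0751 to 0.34 and Gpx1 from -0.16 to 0.0900. Nqo1, Gpx2, Gclc and Gclm kept their sign, at 0.24 to 0.95, 0.20 to 0.44, -0.51 to -0.28 and -0.41 to -0.04. Nqo1 was not tested where 10 counts were required in every library.

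Of the pathway genes 3 were called without a filter on low counts (Gsta3, Me1 and Mgst3), 3 by DESeq2 (Gsta3, Me1 and Fth1), 1 by limma-voom (Prdx1), and between 0 and 4 with a library left out, the 4 without knockout 3. Over all genes 25 were called. The count was 290 without a filter, 13 with at least 10 counts in every library, 138 by DESeq2, 101 by limma-voom, 10 with a Y-linked covariate, 38 at 10% false discovery rate, and 10 to 152 with a library left out, 10 without control 3 and 152 without knockout 3. No paired analysis was possible because the titles of the genotypes share only 1 number, that of control 4 and knockout 4, and no littermate pairs are named. With the library set as a block no member was called and 24 genes were. The 95% interval of Nqo1, from -0.84 to 1.99, left changes in either direction unresolved, and Nox1 and Hmox1 had too few counts for the test.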
